A study of Mus musculus with 20 samples.

Results

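Endothelial cells that lack Atf4 were compared with wild type cells in a glycolytic muscle of the mouse, in 10 of the 20 libraries of the series. They were chosen by title: 5 libraries named Glycolytic mECs Atf4-/- (Atf4 ECKO here) and 5 named Glycolytic mECs WT. The cells came from the extensor digitorum longus of C57BL/6N mice of 8 to 10 weeks and were sorted for CD31, a surface protein of endothelium, and against CD45, which marks leukocytes. All mice, wild type controls included, were injected intraperitoneally with 1 mg tamoxifen a day on 5 days and were left for at least 7 days. Littermates that carried no Cre served as wild type. In the Atf4 ECKO mice the gene was deleted in endothelial cells by an inducible Cre, but the sources used here give neither its promoter nor the number of animals behind a library. The p-values measure no more than the spread among libraries of a group, and that spread may be technical. The other 10 libraries hold the same genotypes from the soleus, an oxidative muscle. The title of the series concerns vessel growth after exercise and endothelial cells primed by ATF3 and ATF4.

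ATF4 is the transcription factor through which the integrated stress response acts on genes. When kinases that sense amino acid shortage, unfolded protein, heme loss or viral RNA phosphorylate eIF2, most translation slows, but the ATF4 message is translated more. ATF4, paired with C/EBP proteins and other partners, then raises genes that make and import amino acids, charge tRNAs and handle oxidised thiols. Endothelial cells use the same program for serine, glycine and asparagine supply when they divide and form sprouts.

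Levels are CPM (counts scaled to the library size) with TMM factors, values after ± are SDs of 5 libraries for levels and SEs for log2 fold changes, and a gene was called when its adjusted p was below 0.05 in edgeR's quasi-likelihood test. Totals ran from 8013223 to 13329888 counts in Atf4 ECKO and from 11267398 to 21720127 in wild type, ranges that overlap but lie lower in Atf4 ECKO. In all, 4054 of 13971 genes tested were called (29.0%), 1939 higher (13.9%) and 2115 lower (15.1%) in Atf4 ECKO, and 363 genes stood at least 2-fold higher and 203 at least 2-fold lower. The median log2 fold change of all genes tested was 0.0040. Of the 150 genes named with values below, 140 had groups that do not overlap, so lack of overlap sets none of them apart. Most were picked by a large change or a small adjusted p, and the share over all genes tested was not counted. RNA of other cells and of the sexes moved with genotype. Xist, the X-inactivation transcript of females, was at most 0.077 CPM in wild type and at least 59.3 CPM in Atf4 ECKO, and 4 Y-linked genes together were at least 92.1 CPM in wild type and at most 1.55 CPM in Atf4 ECKO. Sex and genotype therefore cannot be told apart in this comparison. Of 409 X-linked genes tested 121 were called, a share near the 29.0% of all genes tested. Summed over 20 muscle fibre markers, the level was 179.5 to 189.6 CPM in Atf4 ECKO and 75.0 to 85.0 CPM in wild type, with 14 members higher. Over 11 tested fibroblast markers it was 161 to 166 CPM against 84.1 to 96.1 CPM (5 higher), over 15 immune markers 23.1 to 25.2 CPM against 43.7 to 50.9 CPM (6 lower), and over 5 erythroid markers 2268 to 2491 CPM against 3789 to 4011 CPM (5 lower). Ptprc, which encodes CD45, was at most 0.275 CPM, Cd3e of T cells and Adipoq of adipocytes were at most 0.282 CPM, and the 18 pan-endothelial markers summed to at least 14640 CPM in all 10 libraries. In bulk RNA, fewer cells of a type and less RNA per cell cannot be told apart. Wild type mice carried no Cre, so the presence of Cre and the loss of Atf4 cannot be told apart either. The part of sex, Cre, depth and other cells in the results below was not tested.

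**Figure D1:**
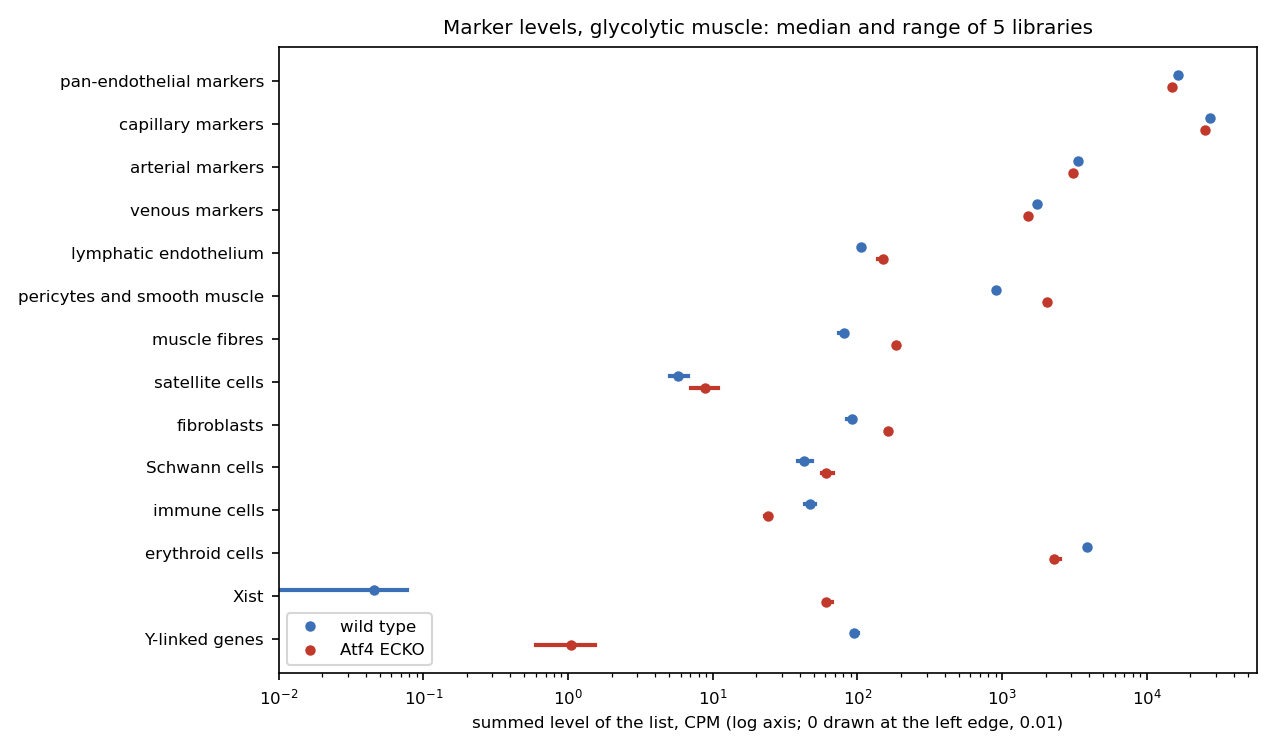
Summed CPM (log axis) of marker lists in glycolytic muscle, as the median (point) and range (line) of 5 libraries per group, wild type in blue and Atf4 ECKO in red, with 0 drawn at 0.01. Pan-endothelial markers lie above 14000 CPM in both groups, the muscle fibre, fibroblast, and pericyte and smooth muscle sums are higher in Atf4 ECKO (the last through Acta2 and Tagln), the immune and erythroid sums are lower, and Xist and the Y-linked genes separate the groups completely.

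ATF4 and C/EBP proteins bind a composite element whose letters are TGATGNAA, in which N is any base. Promoter windows of 300 bases (250 before to 50 after the RefSeq start, GRCm38.p6) were searched for these letters on both strands. Of 10245 tested genes with such a window 2.73% held a match, of the 1602 called lower 4.43% and of the 1484 called higher 1.75%. The members of 5 lists were pooled: serine and folate enzymes, asparagine and proline enzymes, amino acid transporters, cytosolic tRNA synthetases, and factors of the integrated stress response. There, 12 of 39 members called lower held a match (30.8%), and so did 5 of 35 members that were not called lower (14.3%). The shares differed among the lists: they were 55.6% and 0% for synthetases and 33.3% and 8.33% for transporters, but equal for asparagine and proline enzymes (25% each), stress response factors (33.3% each) and serine and folate enzymes (0% each), over 3 to 12 genes a share. The windows below, 30 bases each, are a selection of the matches that lie before the start in genes of these lists. Such matches in Aars, Herpud1, Jdp2, Slc7a7 and Vldlr are not printed. Of the 5 members with a match that were not called lower, only Atf3 and Got1 are printed. Capitals mark the match, which reads as the reverse complement where it lies on the opposite strand. The first 7 lines belong to genes that fell. The last 2, of Atf3 and Got1, hold the same letters, but these genes did not pass the test.
Asns, chr6:7693214-7693243, minus strand, match 23 bases before the start: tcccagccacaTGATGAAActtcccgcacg
Slc7a11, chr3:50443661-50443690, minus strand, match 66 bases before the start: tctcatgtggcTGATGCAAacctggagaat
Slc7a11, chr3:50443642-50443671, minus strand, match 47 bases before the start: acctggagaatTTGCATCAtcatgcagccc
Pycr1, chr11:120643833-120643862, minus strand, match 103 bases before the start: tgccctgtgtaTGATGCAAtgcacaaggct
Gars, chr6:55037960-55037989, plus strand, match 30 bases before the start: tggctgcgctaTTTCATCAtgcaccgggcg
Tars, chr15:11399659-11399688, minus strand, match 15 bases before the start: gggccaggagtcccgTTGCATCAgctggtt
Nupr1, chr7:126625562-126625591, minus strand, match 110 bases before the start: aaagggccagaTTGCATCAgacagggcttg
Atf3, chr1:191183425-191183454, minus strand, match 110 bases before the start: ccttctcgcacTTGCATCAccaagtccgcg
Got1, chr19:43524689-43524718, minus strand, match 102 bases before the start: cattgcattggTTGCATCAtacaagcctcc
In the GENCODE models the windows of Slc7a11, Pycr1, Gars and Got1 lie upstream of the gene. Those of Asns, Nupr1 and Atf3 lie within its span and that of Tars overlaps its first bases, since the models hold transcripts that start further upstream. A match describes the letters only.

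Atf4 (ENSMUSG00000042406.8), located in GRCm38 on chromosome 15, 80255184 to 80257541, plus strand, was measured at 265, 259.5, 281, 243 and 261 CPM in wild type libraries 1 to 5 and at 8.44, 7.86, 5.79, 7.19 and 7.61 CPM in Atf4 ECKO libraries 1 to 5. The groups lie far apart, and the mean in Atf4 ECKO was 2.82% of that in wild type (exact 2-sided permutation p = 0.0079, the smallest that 5 against 5 libraries allow). Genes beside it on chromosome 15 changed too. Rps19bp1, about 3 kb away on the opposite strand, went from 18.2 CPM ± 1.46 to 1.72 CPM ± 0.462 (log2 fold change -3.45 ± 0.14, edgeR adjusted p = 9.4e-16). Cacna1i, which encodes a calcium channel subunit, had 0 counts in every wild type library and 18.4 to 21.3 CPM in Atf4 ECKO, at least 543-fold higher against a floor of 3 counts over the wild type group, which covers counting error only. By their coordinates neither Rps19bp1 (from 80260615) nor Cacna1i (from 80287238) overlaps Atf4. How strand was handled in the counting is not known for these libraries. Values of genes beside the deleted one are uncertain, and the cause of their changes was not tested.

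Serine and folate one-carbon enzymes, which make serine and glycine and carry their carbon into mitochondria and nucleotides, fell in 8 of 17 tested members and rose in 1 (median log2 fold change -0.09, against 15.1% of all genes called lower). The list was split: the 8 members that fell stood at 11.2% (Mthfd2) to 60.4% (Sfxn1) of wild type, and the 8 members without a call lay between log2 fold changes of -0.09 and 0.34. Phgdh, which opens serine synthesis, stood at 25.1, 27.1, 26.8, 26 and 20.8 CPM in wild type and 1.64, 4.43, 2.38, 3.67 and 2.73 CPM in Atf4 ECKO. Psat1, the transaminase of the next step, stood at 46.7, 53.3, 60.3, 49 and 51.3 CPM and 7.97, 9.08, 8.43, 6.91 and 9.27 CPM. Every Atf4 ECKO library was below every wild type library for both genes, with log2 fold changes of -3.06 ± 0.14 and -2.66 ± 0.11 (edgeR adjusted p = 7.6e-15 and 9.1e-16). Psph, the last enzyme of the route, fell less (24 to 10.7 CPM, -1.17 ± 0.12). Of the folate enzymes, mitochondrial Mthfd2 went from 34.8, 42.5, 38.8, 39.7 and 42.6 CPM to 4.81, 4.21, 3.49, 4.09 and 5.59 CPM, or 11.2% of wild type (-3.19 ± 0.10, adjusted p = 9.5e-19). Mitochondrial Aldh1l2 (1.99 to 0.332 CPM), its cytosolic relative Aldh1l1 (106 to 30.9 CPM), the serine hydroxymethyltransferase Shmt2 (61.5 to 32.6 CPM) and the mitochondrial serine carrier Sfxn1 (25.5 to 15.4 CPM) fell with it. Mthfd1l, the mitochondrial formate-producing enzyme, stood at 11.1 CPM ± 1.28 and 10.6 CPM ± 2.12 in the 2 groups, which overlapped (adjusted p = 0.72). Gldc of the glycine cleavage system was the member called higher, at levels below 1 CPM in every library (1.82, adjusted p = 0.031), and did not pass in 7 of 10 fits that each left out 1 library (adjusted p = 0.057 to 0.083).

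Enzymes of asparagine, proline and transamination fell in 8 of 17 members and rose in 2 (median -0.23). Asns, asparagine synthetase, stood at 138, 135, 141, 142 and 150.2 CPM in wild type and at 39.97, 36.9, 39.1, 40.5 and 40.4 CPM in Atf4 ECKO. The 5 Atf4 ECKO values lie within 4 CPM of each other and far below every wild type value (-1.84 ± 0.05, adjusted p = 1.2e-19). Bcat1, the cytosolic transaminase of branched-chain amino acids, was nearly lost, from 5.96, 4.79, 5.62, 5.61 and 7.39 CPM to 0, 0.111, 0.256, 0.282 and 0.357 CPM (-4.74 ± 0.27, adjusted p = 4.6e-13), while its mitochondrial counterpart Bcat2 did not pass. The proline route fell at both of its steps from glutamate: Aldh18a1 from 27.1 to 5.96 CPM (-2.21 ± 0.13) and Pycr1 from 6.23 CPM to 9.63% of that level (-3.44 ± 0.31). Smaller falls were seen in the alanine transaminase gene Gpt2 (-1.27), in Oat, which links ornithine to proline (-0.54), and in the glutamine synthetase gene Glul (-0.47). Got1, an aspartate transaminase, was 22.4 CPM ± 2.19 and 19.1 CPM ± 2.48, with overlapping groups (-0.23, adjusted p = 0.056). It passed without Atf4 ECKO library 5 (adjusted p = 0.013) or without wild type library 4 (adjusted p = 0.025). Ass1, which makes argininosuccinate from citrulline and aspartate, was called higher (36.5 to 47.6 CPM, adjusted p = 0.028), but did not pass without Atf4 ECKO library 1 or 5 or without wild type library 3, 4 or 5 (adjusted p = 0.050 to 0.077).

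Transport of amino acids changed in both directions, with 9 of 25 tested transporter genes lower, 3 higher and a median of -0.17. Slc7a11, the cystine importer that supplies glutathione synthesis, stood at 54.5, 49.9, 53.7, 52.3 and 55.3 CPM in wild type and 12.5, 9.19, 14, 10.4 and 11.4 CPM in Atf4 ECKO (-2.21 ± 0.12, adjusted p = 1.1e-13). Slc1a4, which carries serine, alanine and cysteine, fell to 16.5% of wild type (-2.62 ± 0.20), and Slc6a9, the glycine transporter, to 23.9% (-2.08 ± 0.16). Slc7a5 of the large neutral carrier fell from 6.21 to 2.41 CPM, its partner chain Slc3a2 from 475 to 372 CPM, the cationic carrier Slc7a1 from 45 to 30.01 CPM and the taurine carrier Slc6a6 from 356 to 184 CPM. Slc38a2, the sodium-coupled glutamine and alanine importer, went the other way, from 286, 269, 284, 294 and 282 CPM in wild type to 455, 459, 431, 436 and 446 CPM. Its groups do not overlap, and its log2 fold change was 0.65 ± 0.05 (adjusted p = 1.9e-10). Slc7a6, an exchanger of cationic and neutral amino acids, rose from 20.6 to 34.4 CPM (0.74 ± 0.08). Slc7a8, a further light chain of the neutral carriers, rose from 0.358 CPM ± 0.207 to 2.33 CPM ± 0.628 (2.71 ± 0.34, adjusted p = 7.0e-07).

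Cytosolic tRNA synthetases, which load amino acids onto tRNAs, fell in 14 of 20 members and rose in 2, with a median of -0.45. Aars, the alanine enzyme, stood at 114, 110.0, 127, 111 and 119 CPM in wild type and 50.9, 61.1, 54.5, 59.2 and 50.6 CPM in Atf4 ECKO (-1.07 ± 0.06, adjusted p = 2.9e-13). Cars (-1.07), Yars (-0.90), Iars (-0.71), Wars (-0.68), Gars (-0.64) and Tars (-0.62), the enzymes for cysteine, tyrosine, isoleucine, tryptophan, glycine and threonine, fell to between 47.6% and 65.2% of wild type. Rars, the arginine enzyme, was higher, from 111, 113, 124, 107 and 114 CPM to 143, 124, 129, 126 and 138 CPM (0.21 ± 0.06, adjusted p = 0.0093). Its groups touch: the lowest Atf4 ECKO value and the highest wild type value both round to 124 CPM. Dars was called higher by less (0.17, adjusted p = 0.016) with overlapping groups, and did not pass without Atf4 ECKO library 3 (adjusted p = 0.11) or wild type library 4 (adjusted p = 0.058). Of 17 mitochondrial tRNA synthetases, which other genes encode, 1 fell and 3 rose (median 0.06).

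**Figure D2:**
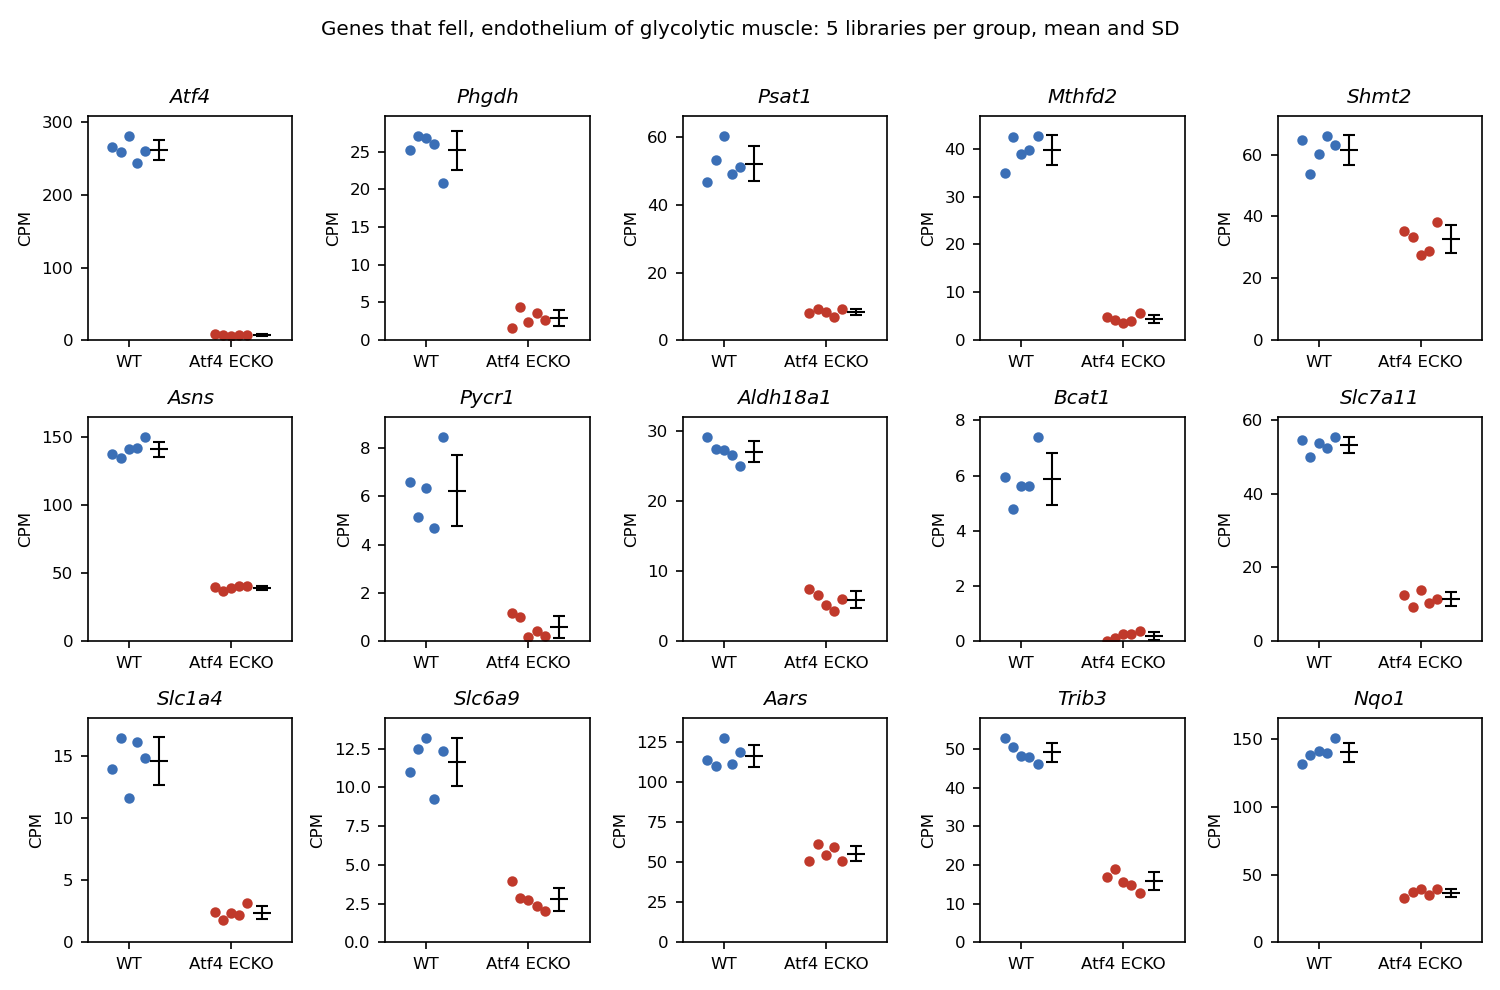
CPM of Atf4 and 14 genes that fell, in wild type (blue) and Atf4 ECKO (red) libraries of glycolytic muscle, 1 point per library, with the mean and SD of 5 libraries in black and each axis starting at 0. In every panel all Atf4 ECKO points lie below all wild type points, from Atf4 at 2.82% of wild type to Shmt2 at 53%.

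Factors and targets of the integrated stress response did not move as a block. Of 20 tested members 11 fell, 2 rose and 7 did not pass (median -0.30). Trib3, a pseudokinase that restrains ATF4 and AKT, stood at 52.8, 50.5, 48.3, 48 and 46.3 CPM in wild type and 16.9, 18.9, 15.6, 14.7 and 12.8 CPM in Atf4 ECKO (-1.64 ± 0.09, adjusted p = 1.1e-13). Atf5, a related transcription factor, fell from 15.8 to 4.99 CPM (-1.64 ± 0.15), the chromatin protein gene Nupr1 from 6.45 to 1.57 CPM (-2.01 ± 0.21), and Eif4ebp1, an inhibitor of cap-dependent translation, from 150.4 to 82.1 CPM (-0.87 ± 0.07). The lipoprotein receptor gene Vldlr (-0.74), the secreted glycoprotein gene Stc2 (-0.81) and the ATF4 partner Cebpg (-0.18, adjusted p = 0.056 without Atf4 ECKO library 5) fell by less. Atf3, the related factor induced by stress, stood at 78.8, 74.5, 76.7, 79.4 and 73.5 CPM in wild type and 68.5, 61.4, 68.7, 68 and 66.1 CPM in Atf4 ECKO. These groups do not overlap, yet the difference did not pass in the fit of all libraries (-0.20 ± 0.09, adjusted p = 0.11), in which the spread of the soleus libraries counts too. It passed in a fit of the 10 glycolytic libraries alone (-0.19, adjusted p = 0.0020). Ddit3, which encodes CHOP (22.6 to 25.5 CPM, adjusted p = 0.14), and Ddit4, an inhibitor of mTORC1 (90.4 to 81.9 CPM, adjusted p = 0.26), overlapped between the groups. Gdf15, a secreted stress hormone, rose from 32.5, 30.4, 28.9, 31.2 and 26.1 CPM to 49.2, 59.2, 53.6, 48.5 and 52.3 CPM. Every Atf4 ECKO library was above every wild type library (0.82 ± 0.08, adjusted p = 7.8e-09). Ppp1r15a, the phosphatase subunit that reverses eIF2 phosphorylation, was called higher by a small amount (96 to 106 CPM, 0.15 ± 0.05, adjusted p = 0.016), and without wild type library 2 it did not pass (adjusted p = 0.061).

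Of 16 tested targets of Nrf2, the factor that answers oxidised thiols, 12 fell and 0 rose (median -0.35). Nqo1, a quinone reductase, stood at 132, 138, 141, 140.0 and 151 CPM in wild type and 32.5, 37.1, 39.4, 35.3 and 39.1 CPM in Atf4 ECKO (-1.94 ± 0.06, adjusted p = 2.2e-18). Srxn1, which repairs peroxiredoxins, fell to 39.3% of wild type, Gclm, the modifier subunit of glutamate-cysteine ligase, to 53.5%, and Gsr, which reduces oxidised glutathione, to 67.5%. Hmox1, heme oxygenase, fell by a smaller step (156 to 129.7 CPM, adjusted p = 0.019, and 0.058 without wild type library 4). Cysteine and glutathione enzymes fell in 4 of 13 members and rose in 1 (median -0.20). Among them were Cth, which makes cysteine from cystathionine (1.14 to 0.171 CPM), and Chac1, which degrades glutathione (15.2 to 4.44 CPM).

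Chaperones of the cytosol and the endoplasmic reticulum were lower as well. Of 14 cytosolic heat shock genes 11 fell and 1 rose (median -0.39), and of 20 chaperones and sensors of the endoplasmic reticulum 11 fell and 1 rose (median -0.20). Hspa1a, the inducible HSP70, uncertain because Hspa1b is nearly identical to it, went from 149.9, 152, 173, 153 and 151 CPM to 43.7, 49.6, 45, 42.1 and 45.2 CPM (-1.79 ± 0.17, adjusted p = 6.6e-09). Constitutive Hsp90ab1 went from 1693 CPM ± 23.6 to 1203 CPM ± 16.9, and its helper Dnaja1 from 453 CPM ± 15.5 to 313 CPM ± 7.88. In the endoplasmic reticulum Hsp90b1 fell from 277 to 200.4 CPM (-0.47 ± 0.05). Mitochondrial chaperones and proteases gave 3 lower and 1 higher of 11 (median -0.02), with Hspd1 at 80.7% of wild type.

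Of 22 genes of cholesterol synthesis and uptake 16 fell, 0 rose and the median was -0.48. Idi1, which isomerises the isoprenoid building block, stood at 38.3, 32.4, 28, 34.9 and 31 CPM in wild type and 15, 13, 14.7, 16.1 and 14.2 CPM in Atf4 ECKO (-1.17 ± 0.11, adjusted p = 2.6e-09). Fdft1, which makes squalene, fell from 35.8 to 21.9 CPM (-0.70 ± 0.09), and Insig1, which retains the SREBP complex when sterols are abundant, from 73.5 to 46.9 CPM (-0.65 ± 0.07). Purine and pyrimidine synthesis moved the other way in 8 of 16 members with 1 lower (median 0.12), led by Ctps, which makes CTP (85.5 to 167 CPM, 0.97 ± 0.09). The 13 mitochondrially encoded genes had a median of -0.10.

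**Figure D3:**
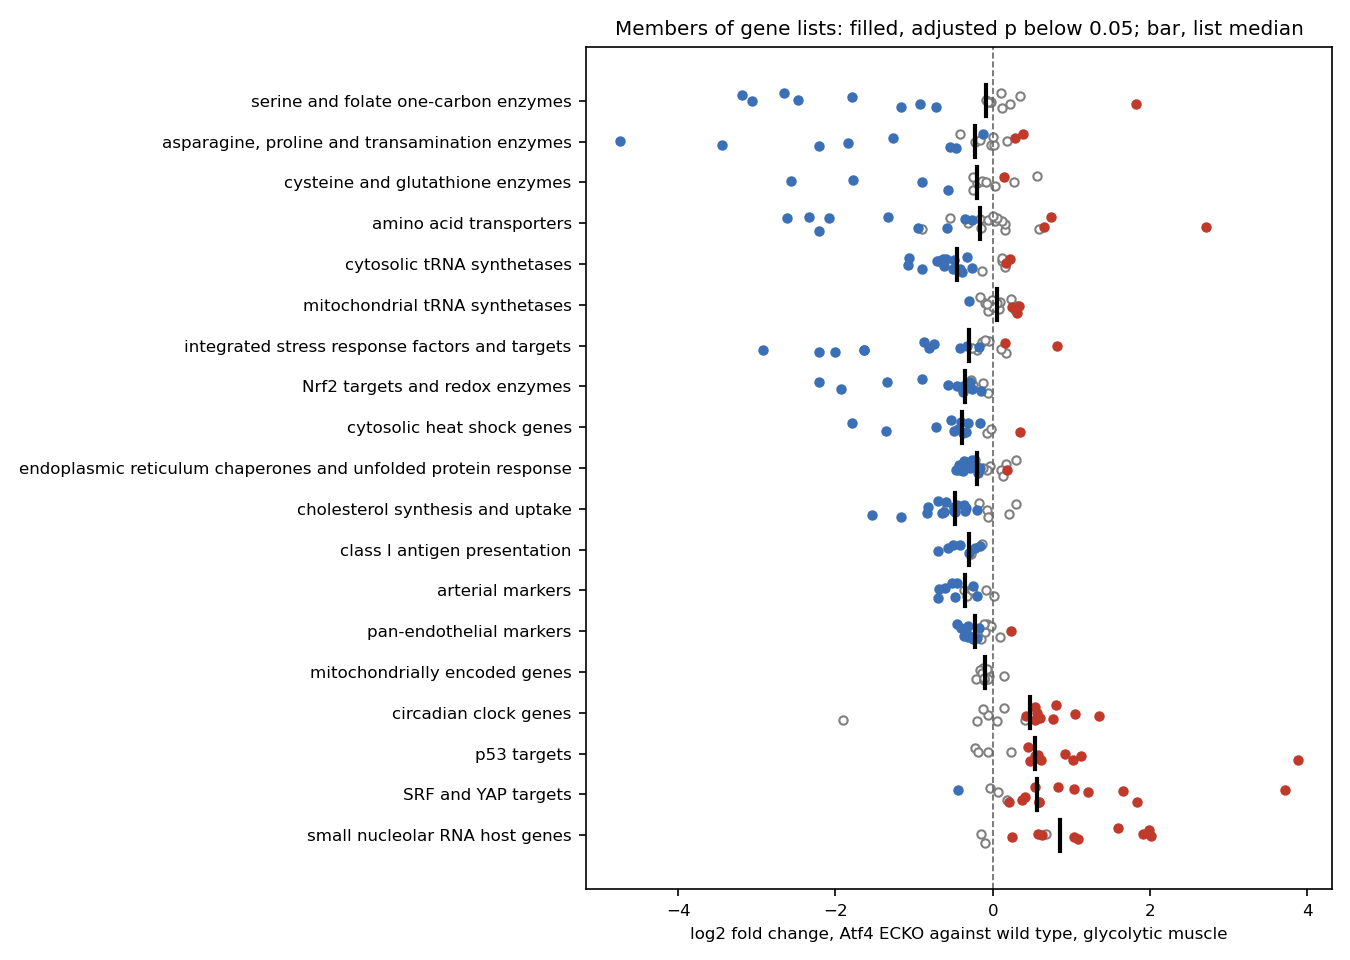
log2 fold change (Atf4 ECKO against wild type, glycolytic muscle) of the tested members of 19 lists, 1 point per gene, filled blue where called lower, filled red where called higher and open where not called, with the list median as a black bar and the median of all genes as a dashed line. The medians of the stress, redox, chaperone and cholesterol lists lie left of the line, while those of clock genes, p53 targets, SRF and YAP targets and small nucleolar RNA host genes lie right of it.

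Several groups rose. Targets of p53, the factor that halts division or triggers death after damage, rose in 9 of 13 members and fell in 0, with a median of 0.53 against 13.9% of all genes called higher. Pmaip1, which encodes the BH3-only protein NOXA, had the largest change of the list: 2.75, 1.46, 1.16, 1.59 and 1.25 CPM in wild type and 21.8, 25.1, 24.3, 22 and 24.4 CPM in Atf4 ECKO, 14.3-fold higher in the mean (3.88 ± 0.16, adjusted p = 1.1e-15). Cdkn1a, the cell cycle inhibitor p21, stood at 286, 292, 289, 301 and 299 CPM and 622, 658, 658, 640.0 and 621 CPM (1.12 ± 0.10, adjusted p = 1.2e-09). Phlda3, an inhibitor of AKT (1.01), the nuclease gene Aen (0.92) and Bax, which permeabilises mitochondria (0.58), rose too. Of 16 cell cycle genes 7 fell and 0 rose (median -0.69), from low levels: Mki67 was at most 2.08 CPM in any wild type library and at most 0.17 CPM in Atf4 ECKO. Host genes of small nucleolar RNAs, whose spliced transcripts are short-lived when translated, rose in 9 of 12 members and fell in 0 (median 0.85). Snhg15 stood at 8.8, 6.93, 8.47, 6.16 and 7.08 CPM in wild type and 30.6, 28.8, 29.6, 30.2 and 30.3 CPM in Atf4 ECKO (2.01 ± 0.09, adjusted p = 3.2e-15). Snhg17 (3.99-fold), Snhg1 (3.77-fold, beside Slc3a2), Snhg12 (3.02-fold) and Gas5 (2.11-fold) rose with it, and for each of these genes all Atf4 ECKO libraries were above all wild type libraries.

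Targets of SRF and YAP, factors that respond to actin tension, rose in 12 of 16 members and fell in 1 (median 0.56). Ankrd1 stood at 13.7, 17.4, 15.9, 13.8 and 16.3 CPM in wild type and 205, 208, 204, 202 and 203 CPM in Atf4 ECKO, 13.3-fold higher in the mean (3.72 ± 0.18, adjusted p = 1.3e-14). The matricellular genes Ccn2 (352 to 1249 CPM, 1.83 ± 0.09) and Ccn1 (1179 to 2407 CPM, 1.03 ± 0.06) and the LIM protein gene Ajuba (18.3 to 57.4 CPM, 1.65 ± 0.09) rose likewise. Vcl, the adhesion protein vinculin, was the member that fell (178 to 131 CPM, -0.45 ± 0.05), and was named after its value was seen. Fhl2 (8.39-fold) and Tns3 (5.38-fold), of focal adhesions, were among the 15 largest rises of all genes. Fn1, fibronectin, rose from 109, 96.7, 93.8, 86.3 and 91.8 CPM to 484, 482, 506, 481 and 506 CPM (2.37 ± 0.09), within a basement membrane and matrix list of which 6 of 14 members rose and 6 fell, among them Lamb1 higher (0.69) and Col4a1 lower (-0.51). Markers of pericytes and smooth muscle moved beside these genes: 3 of 13 were higher and 2 lower, and their sum was 2037 to 2097 CPM in Atf4 ECKO and 896 to 912 CPM in wild type. Acta2, smooth muscle actin, stood at 186, 189, 190.0, 187 and 190.5 CPM in wild type and 1040.0, 1023, 1011, 1014 and 1030.0 CPM in Atf4 ECKO (2.44 ± 0.10), and Tagln at 130.1 and 519 CPM (adjusted p = 2.7e-12). These 2 genes carry the higher sum: of the other 11 markers Cnn1 was called higher, 2 were lower and 8 had no call. The pericyte receptor Pdgfrb was lower, at 34.7 and 24.9 CPM (-0.48 ± 0.12, adjusted p = 0.0031), and Rgs5 stood at 415 and 363 CPM without a call. The fibroblast gene Dcn rose from 12.9 to 37.8 CPM (1.55 ± 0.39) and the muscle actin gene Acta1 from 19.1 to 70.1 CPM (1.88 ± 0.18).

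**Figure D4:**
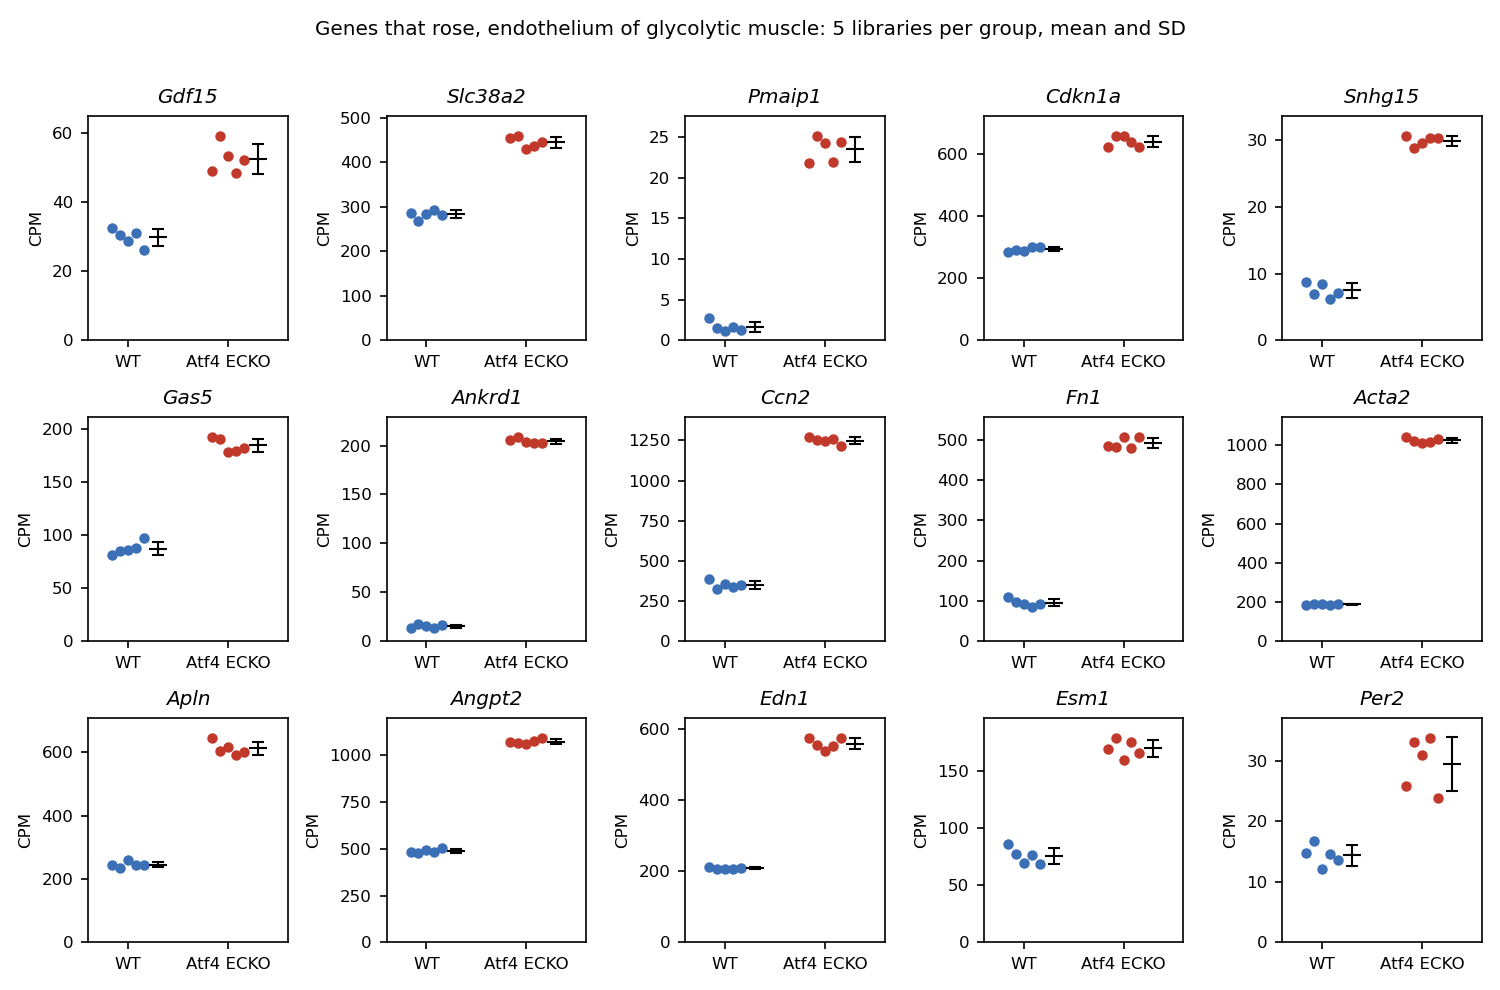
CPM of 15 genes that rose, in wild type (blue) and Atf4 ECKO (red) libraries of glycolytic muscle, 1 point per library, with the mean and SD of 5 libraries in black and each axis starting at 0. All Atf4 ECKO points lie above all wild type points in each panel, from 1.57-fold in the mean for Slc38a2 to 14.3-fold for Pmaip1.

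Genes of vessel growth changed in both directions: of 23 tested VEGF, angiopoietin and tip cell genes 9 rose and 5 fell (median -0.02). Apln, a peptide made by tip cells, stood at 244, 236, 260.1, 245 and 246 CPM in wild type and 645, 605, 619, 593 and 601 CPM in Atf4 ECKO (1.32 ± 0.10, adjusted p = 8.9e-11). Aplnr, its receptor, fell from 572, 522, 552, 526 and 525 CPM to 199, 198, 203, 209 and 204 CPM (-1.41 ± 0.16, adjusted p = 8.6e-08), and was named after its value was seen. Ligand and receptor thus moved in opposite directions with no overlap of groups. Angpt2, which loosens the contact of endothelium and pericytes, rose from 488 to 1073 CPM (1.14 ± 0.08), and Esm1, a proteoglycan of tip cells, from 75.5 to 169.6 CPM (1.17 ± 0.10). Dll1, a Notch ligand, fell from 138 to 68 CPM (-1.02 ± 0.09), and Tgfb2 rose from 15.1 to 34.1 CPM (1.16 ± 0.10).

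Vasomotor and coagulation genes were likewise divided, 6 of 18 higher and 6 lower (median -0.02). Edn1, the vasoconstrictor endothelin, stood at 214, 207, 207, 207 and 209 CPM in wild type and 575, 556, 540.2, 552 and 575 CPM in Atf4 ECKO (1.42 ± 0.08, adjusted p = 7.7e-13). Ddah1, which clears inhibitors of nitric oxide synthase, rose 2.93-fold. Procr, the protein C receptor, fell to 64.8% of wild type.

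Most lists of endothelial identity markers held more members that fell than rose. Of 18 pan-endothelial markers 11 fell and 1 rose (median -0.23), of 16 junction and caveolae genes 10 fell and 0 rose, of 14 arterial markers 8 fell and 0 rose (median -0.35), and of 10 venous markers 7 fell and 2 rose (median -0.27). Capillary markers were near balance, with 3 of 12 lower and 2 higher (median -0.02). Pecam1, the gene of CD31, was at 1802, 1737, 1834, 1746 and 1835 CPM in wild type and 1467, 1421, 1449, 1397 and 1434 CPM in Atf4 ECKO (-0.32 ± 0.04, adjusted p = 1.6e-06). VE-cadherin (Cdh5) was at 75.3%, claudin 5 (Cldn5) at 72.7% and endomucin (Emcn) at 77.3% of wild type. The arterial repressor Hey1 fell from 136 to 83.7 CPM, and the venular chemokine-binding receptor Ackr1 from 128 to 57.2 CPM (-1.17 ± 0.07). Leukocyte adhesion and cytokine genes were divided, with 4 of 15 higher and 5 lower (median -0.09). P-selectin (Selp) fell from 122 to 60.6 CPM, and Icam1 rose from 150.2 to 292 CPM (0.96 ± 0.07) and the chemokine gene Ccl2 from 8.32 to 24.5 CPM (1.54 ± 0.17). Of 21 genes of endothelial fatty acid uptake and oxidation 8 fell and 2 rose (median -0.10). Fabp4 was lower (4752 to 3054 CPM), and Lpl was 1 of the 2 that rose (373 to 568 CPM). Class I antigen presentation fell in 7 of 9 members and rose in 0 (median -0.31): B2m was at 67.5% of wild type and the proteasome subunit Psmb9 at 74.6%. H2-K1 was at 61.6% and H2-D1 at 70.6%, but these genes share reads with near-identical copies and are uncertain.

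Clock and glucocorticoid genes were higher. Of 16 clock genes 9 rose and 0 fell (median 0.48), and of 12 glucocorticoid response genes 7 rose and 1 fell (median 0.40). The repressor gene Per2 stood at 14.8, 16.7, 12.1, 14.6 and 13.5 CPM in wild type and 25.8, 33.1, 31, 33.7 and 23.8 CPM in Atf4 ECKO (1.04 ± 0.14, adjusted p = 1.6e-06). Bhlhe41, a repressor of the clock, rose 2.55-fold and Zbtb16, a glucocorticoid-induced factor, 2.12-fold, while the phosphatase gene Dusp1 fell from 1486 to 964 CPM. The time of day of the sorts is not given. Of 26 immediate early genes 12 fell and 4 rose (median -0.19), with Nr4a1 lower (188 to 80.1 CPM, -1.23 ± 0.17) and Maff higher (7.37 to 16.6 CPM, 1.17 ± 0.13). The glycolytic activator Pfkfb3 rose from 53.6 to 96.4 CPM (0.85 ± 0.13), within a glycolysis list of which 6 of 19 members fell and 1 rose.

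Some of the largest changes lay outside these groups. Esr1, the estrogen receptor, went from 3.38, 2.92, 2.7, 1.76 and 2.71 CPM in wild type to 35.6, 22.6, 28.5, 33.6 and 27.6 CPM in Atf4 ECKO, 11-fold in the mean (3.48 ± 0.15, adjusted p = 2.8e-15). This gene lies on chromosome 10, and the groups differ in sex and in the presence of Cre as well as in Atf4. Esr1 rose in the soleus too (3.94 ± 0.16), and its interaction had no call (-0.47, edgeR adjusted p = 0.17). Whether all its reads come from the mouse's own Esr1 gene was not tested, so its level is uncertain. Tmem171, of unknown role, rose 8.75-fold, the epidermal-type lipoxygenase Aloxe3 7.83-fold and Phlda1 5.33-fold. Cyp26b1, which degrades retinoic acid, fell from 96.5, 113, 95.5, 108 and 96.7 CPM to 10.7, 10.3, 10.9, 11.6 and 9.39 CPM (-3.26 ± 0.17, adjusted p = 6.1e-14). Tnfsf18, the ligand of the T cell receptor GITR, fell from 9.8 to 0.409 CPM (-4.51 ± 0.34), the secreted phosphoprotein gene Spp1 from 33.7 to 4.19 CPM (-3.00 ± 0.21) and the peptide gene Nts from 9.3 to 1.52 CPM (-2.60 ± 0.22). The largest rises also include AY036118, whose libraries ranged from 0 to 187 CPM in wild type and 0 to 1558 CPM in Atf4 ECKO, so that the groups overlapped (adjusted p = 0.032, and 0.051 to 0.072 in 6 of 10 fits that left out 1 library), and Tsix, which overlaps Xist on the opposite strand. Both are uncertain.

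The soleus libraries of the same genotypes allow a test of whether the response to deletion differs between the muscles, the interaction of genotype and muscle. The responses in the 2 muscles share no library. The interaction was called for 3163 genes (22.6%), 1746 of them positive (12.5%), meaning a higher log2 fold change in glycolytic muscle, and 1417 negative (10.1%). In the soleus 32.0% of genes were called, 14.6% higher and 17.4% lower. Atf4 ECKO libraries 1, 2 and 3 of the soleus carried Xist and Y-linked RNA together, while libraries 4 and 5 carried Xist without Y-linked RNA, as the glycolytic Atf4 ECKO libraries did. With soleus Atf4 ECKO libraries 4 and 5 alone, 3159 genes had a called interaction, of which 2421 kept call and direction. Of the 150 genes named with values, 108 had a called interaction and 107 of them kept it with these 2 libraries. Many of these genes were picked by their values in the fit of all libraries, and the 2 fits share all other libraries. The count for named genes is therefore not an independent check. Atf4 itself was in wild type at 554 CPM in the soleus and 262 CPM in the glycolytic muscle, and 8.29 and 7.38 CPM after deletion.

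Many amino acid and stress genes had a higher log2 fold change in the glycolytic muscle, as a smaller fall or as no fall there. Of the 872 genes of any kind that fell in both muscles, 165 had a positive interaction (a smaller fall in glycolytic muscle) and 65 a negative one. The list counts that follow include members called higher in glycolytic muscle, such as Gdf15, Rars and Slc38a2. The interaction was positive for 16 of 20 stress response members and negative for 0 (17 and 0 with soleus libraries 4 and 5 alone), for 13 of 20 cytosolic tRNA synthetases with 1 negative (15 and 1), for 9 of 17 serine and folate enzymes with 1 negative (7 and 1) and for 11 of 25 transporters with 1 negative (12 and 3). Without Atf4, Phgdh stood at 4.41 CPM in the soleus and 2.97 CPM in the glycolytic muscle (interaction 1.78 ± 0.21, adjusted p = 4.9e-07, and 1.86 with soleus libraries 4 and 5 alone). Mthfd2 stood at 4.12 and 4.44 CPM (interaction 1.92 ± 0.15) and Asns at 31.4 and 39.4 CPM (interaction 1.59 ± 0.07). In wild type, soleus levels of these 3 genes were 123, 144 and 339 CPM against 25.2, 39.7 and 141 CPM in the glycolytic muscle. Bcat1 (1.15, adjusted p = 0.12) and Pycr1 (0.43, adjusted p = 0.58) did not pass the test of a difference.

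Other genes moved in opposite directions. Of 13971 genes tested, 323 were higher after deletion in glycolytic muscle and lower in the soleus, 189 did the reverse, 872 fell in both and 560 rose in both. In glycolytic muscle 13.9% of all genes were called higher and 15.1% lower, and in the soleus 14.6% and 17.4%. Whether the counts exceed what these shares would give for unrelated calls was not tested. With soleus Atf4 ECKO libraries 4 and 5 alone the counts were 338, 184, 781 and 512 of 14856 genes tested. Gdf15 rose in the glycolytic muscle (0.82) and fell in the soleus from 183 to 22.5 CPM (-3.02), an interaction of 3.84 ± 0.11 (adjusted p = 1.1e-18, and 3.90 with soleus libraries 4 and 5 alone). Slc38a2 (0.65 and -0.56), Rars (0.21 and -1.37) and Ppp1r15a (0.15 and -1.74) did the same, with interactions of 1.22 ± 0.07, 1.58 ± 0.09 and 1.89 ± 0.07. Of the small nucleolar RNA host genes 8 of 12 were higher in the glycolytic muscle and lower in the soleus, and 9 had a positive interaction (8 and 9 with soleus libraries 4 and 5 alone). Ankrd1 went from 80.2 to 47.3 CPM in the soleus (interaction 4.45 ± 0.24) and Ccn2 from 879.5 to 505 CPM (interaction 2.63 ± 0.12). Pmaip1 did not pass in the soleus (10.3 to 11.8 CPM, adjusted p = 0.33), with an interaction of 3.70 ± 0.22 (adjusted p = 1.3e-12).

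Some further groups had a lower log2 fold change in the glycolytic muscle than in the soleus, and others a higher one. Cholesterol genes had a negative interaction in 13 of 22 members and a positive one in 0 (10 and 0 with soleus libraries 4 and 5 alone), and Idi1 went from 18.6 to 17.1 CPM in the soleus (interaction -1.04 ± 0.15, adjusted p = 7.8e-06). Class I genes were negative in 9 of 9 (8 of 9), pan-endothelial markers in 9 of 18 (14 of 18) and interferon response genes in 18 of 21 (18 of 21). Pecam1 and Cldn5 fell in the glycolytic muscle and rose in the soleus (0.23 and 0.46), with interactions of -0.55 ± 0.06 and -0.93 ± 0.11. The mitochondrially encoded genes went the other way. All 13 had a positive interaction, and all 13 were called lower after deletion in the soleus (median -0.70, against -0.10 in the glycolytic muscle). Hmox1, also with a positive interaction, went from 1621 to 96.5 CPM in the soleus (interaction 3.81 ± 0.12, adjusted p = 6.2e-18). For Nqo1 the difference between the muscles did not pass (-1.94 and -1.70, interaction -0.24 ± 0.09, adjusted p = 0.051). Soleus marker levels differed too: immune markers summed to 306 to 403 CPM in soleus wild type and 48.8 to 101 CPM in soleus Atf4 ECKO, and their part in these differences was not tested.

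**Figure D5:**
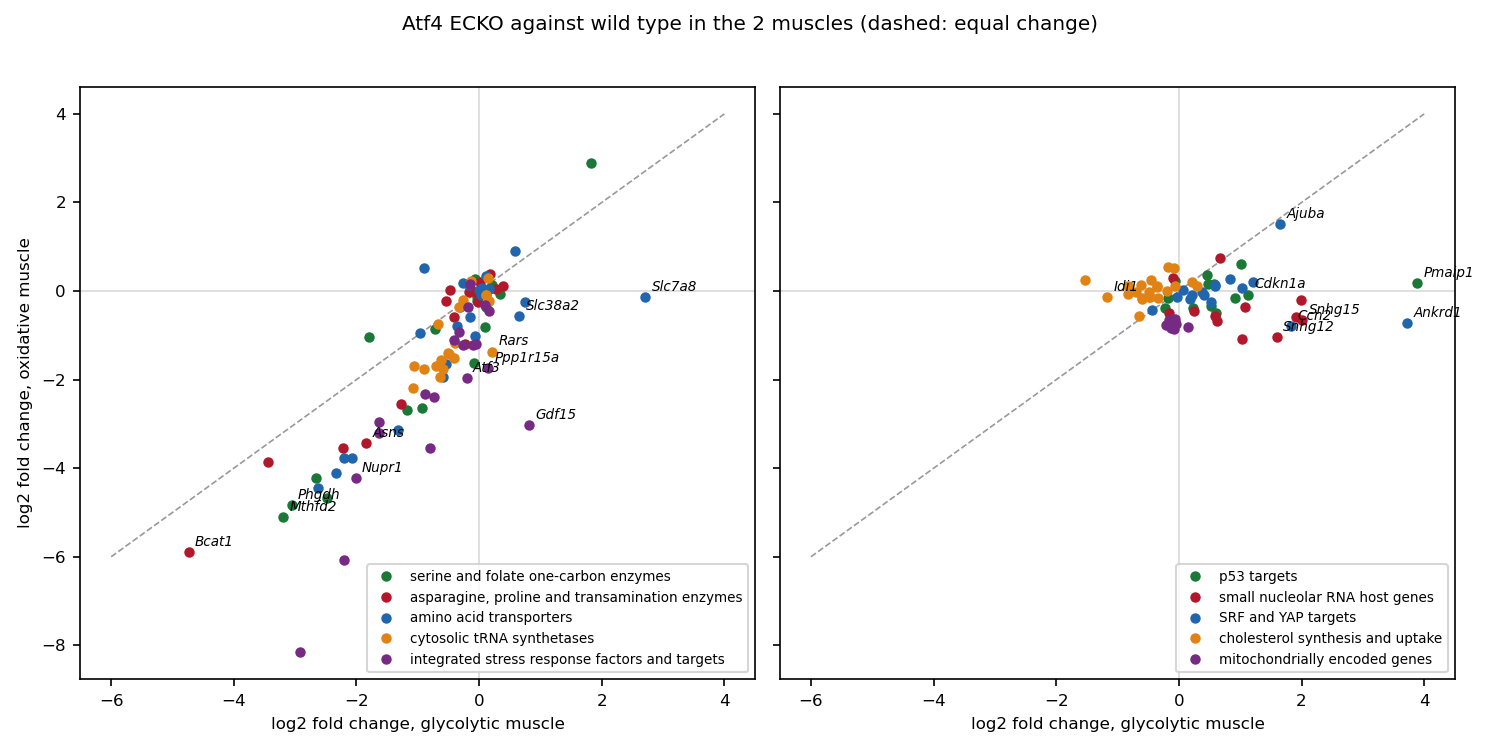
log2 fold change (Atf4 ECKO against wild type) in glycolytic muscle (horizontal axis) and soleus (vertical axis), 1 point per tested gene coloured by list, with equal change on the dashed line. Amino acid and stress genes on the left mostly lie below the line (Phgdh at -3.06 and -4.84), Gdf15 (0.82 and -3.02) and Ankrd1 (3.72 and -0.73) lie in the quadrant of opposite change, and Idi1 (-1.17 and -0.13) lies above it.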

How the data were processed

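Polyadenylated RNA of sorted endothelial cells was sequenced from 5 wild type and 5 Atf4 ECKO libraries of glycolytic muscle, with 10 libraries of the soleus in the same fit. Per the submitters' processing notes the authors used kallisto and DESeq2 and name the build GRCh38.p13, while the deposited transcript IDs are mouse Ensembl IDs. Names and coordinates here come from GENCODE M21 (GRCm38), which held 128643 of 129439 transcripts. The deposited files give an estimated count and a TPM value (abundance scaled for transcript length and depth) per transcript, which the authors made with kallisto. Counts were summed per gene and rounded, and genes with low counts were removed with edgeR's filterByExpr. edgeR 4.0.16 in R 4.3.3 (TMM, quasi-likelihood test, 4 group means, Benjamini-Hochberg adjustment over all genes tested, threshold 0.05) gave each adjusted p. The SE is the log2 fold change divided by the root of F, an approximation. TPM served to weight the effective length of each gene for the offset named below, and no TPM level is quoted. limma 3.58.1 and DESeq2 1.42.0 were alternatives, with other scalings, filters, an offset for effective length, thinning of counts to equal depth and single libraries left out. The edgeR fit of the glycolytic comparison was also run on simulated counts, and that outcome is not reported here.

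Total counts limit precision: 8013223 is the lowest total of the 10 libraries. Gene lists and members were chosen with earlier results of these data known. Genes named are Atf4 and Atf3, the 15 largest falls and 15 largest rises among called genes at 4 CPM or more, all members of the amino acid, tRNA synthetase and stress response lists, up to 5 members of each other list by adjusted p, and 10 genes in each direction by interaction. Not every such gene is described, and some are not reported here. Markers of other cells are checks.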

Additional observations from a re-analysis of the deposited data

Results flagged for a closer look

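Of 300 groups of 5 libraries examined for the genes named, 21 held 1 library far from the other 4, and chance flags about 1 in 20 groups. In wild type, Gldc stood at 0.770 CPM in library 3 (the others 0 to 0.156), Hspa1a at 173 CPM in library 3 (149.9 to 153), Pmaip1 at 2.755 CPM in library 1 (1.16 to 1.59) and Edn1 at 214 CPM in library 1 (207 to 209). Also in wild type, Hmox1 stood at 169.8 CPM in library 4 (150.3 to 154), Gpr161 at 1.46 CPM in library 2 (0.385 to 0.55), AY036118 at 187 CPM in library 1 (0 to 0.154) and Tsix at 0.0889 CPM in library 1 (the others at 0). In Atf4 ECKO, Ass1 stood at 44.4 CPM in library 3 (47.7 to 49.1), Vldlr at 6.64 CPM in library 3 (3.33 to 4.23), Fhl2 at 48.5 CPM in library 3 (41.5 to 42.8), Gsr at 59.8 CPM in library 2 (61.9 to 62.7) and Dll1 at 76.3 CPM in library 2 (64.7 to 67.4). Cd74 stood at 1.22 CPM in library 2 (0.352 to 0.596), Nts at 1.17 CPM in library 1 (1.55 to 1.69), Gbp2b at 0.117 CPM in library 1 (the others at 0), and Ccl2 at 20.3 CPM in library 5 (24.8 to 26.5). H2-M9 stood at 0.713 CPM in library 5 (0 to 0.17), Zbtb16 at 44.0 CPM in library 4 (33.9 to 35.6), Tmem171 at 35.5 CPM in library 4 (39.6 to 41.0) and Tgfb2 at 30.5 CPM in library 4 (34.5 to 35.4).

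The response to deletion differed between the muscles, by the interaction in edgeR, for 3163 genes. Values below are the interaction on the log2 scale, above 0 where the log2 fold change was the higher in glycolytic muscle, with the value from soleus Atf4 ECKO libraries 4 and 5 alone in parentheses. Among amino acid and stress genes they were 1.92 (2.04) for Mthfd2, 1.78 (1.86) for Phgdh, 1.57 (1.95) for Psat1, 1.59 (1.51) for Asns, 1.22 (1.34) for Slc38a2 and 1.00 (1.06) for Slc7a6. Further ones were 1.58 (1.72) for Rars, 0.38 (0.41) for Dars, 1.89 (1.98) for Ppp1r15a, 0.61 (0.54) for Ddit3, 3.84 (3.90) for Gdf15 and 3.81 (4.10) for Hmox1. Ankrd1 had 4.45 (4.20), Ccn2 2.63 (2.59), Pmaip1 3.70 (3.97), Phlda1 2.65 (2.61), Aloxe3 2.94 (3.09) and Tmem171 2.96 (2.84). Snhg15 had 2.67 (2.67) and Snhg12 2.63 (2.32). Negative values were -2.0 (-1.36) for Spp1, -2.30 (-1.51) for Adamts4, -1.83 (-1.70) for Nmb, -1.79 (-1.40) for Clca2, -1.63 (-1.16) for Pbld1 and -1.62 (-1.64) for Agtr1a. Cldn5 had -0.93 (-0.63) and Pecam1 -0.55 (-0.46). Gbp2b had -8.27 (2.49, not called) and H2-M9 -5.11 (-4.76), and both share reads with near-identical copies. Exosc6 had -8.92 (-8.89), and its counts are uncertain because Aars covers it in the same orientation.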

How the results depend on the processing

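The count of 4054 genes called between Atf4 ECKO and wild type in glycolytic muscle was 3419 (offset for effective length) to 4552 (the 10 glycolytic libraries fitted alone) in the other alternatives, and 3553 to 3861 with 1 library left out. DESeq2 called 4156 genes and limma voom 4046. Without the sex chromosomes 3929 genes were called. Calls kept with their direction numbered 3154 to 4021 and, with 1 library left out, 3407 to 3631. The share of calls that were higher was 47.8%, and 41.7% to 49.0% in the alternatives. The interaction count of 3163 was 2613 to 3301, and 2927 to 3218 with 1 library left out. With the replicate number as a replicate block 3779 genes were called, 3666 of them shared, and 2977 interactions. Same-numbered libraries did not deviate together (correlations of -0.069 to 0.022 over 5 pairs), so the numbers were not taken to pair them. Among called single-gene values 1 reversed: the interaction of Gbp2b was -8.27, and 2.49 (adjusted p = 0.57) with soleus Atf4 ECKO libraries 4 and 5 alone. Some interactions without a call in either fit changed sign there too, such as that of Aplnr (0.23 and -0.23) and Zbtb16 (-0.65 and 0.02). The median of the serine and folate list moved from -0.09 to -0.42 with counts thinned to equal depth. Each list median was taken over the members tested in that fit, and the thinned counts left 12871 genes tested, against 13971. The median of the vasomotor list changed sign between alternatives (-0.11 to 0.13). The largest move of any list median, over these alternatives and the fits with 1 glycolytic library left out, was 0.45. Gpx1 kept its call in 1 of 10 fits with a library left out. The cause of these moves was not tested. Depth limits genes below about 1 CPM, such as Gldc. The element TGATGCAA in place of TGATGNAA was held by 23.1% of members called lower in the 5 lists.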

Other observations

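Several lists of stress, metabolism and signalling had a median near that of all genes in glycolytic muscle, where 13.9% of all genes were called higher and 15.1% lower. Of 13 eIF2 kinases, phosphatase subunits and eIF2B subunits 4 rose and 2 fell (median 0.07), and of 13 negative regulators of mTORC1 and translation 0 rose and 3 fell (median -0.06), Trib3 (-1.64) and Eif4ebp1 (-0.87) among them. Hypoxia targets numbered 3 higher and 4 lower of 15 (median -0.10), autophagy genes 2 higher and 4 lower of 21 (median -0.03), and nuclear genes of oxidative phosphorylation 1 higher and 4 lower of 20 (median -0.01). Of 18 genes of TGF-beta and BMP signalling 5 rose and 5 fell, and of 14 Notch genes 1 rose and 5 fell. Of 46 cytosolic ribosomal protein genes 20 fell and 9 rose (median -0.10), against 43 lower and 0 higher in the soleus (median -0.37), and 28 had a positive interaction and 0 a negative one, also with soleus Atf4 ECKO libraries 4 and 5 alone. Interferon response genes rose in 4 and fell in 6 of 21 in glycolytic muscle (median -0.0024), against 20 higher and 0 lower in the soleus (median 0.34).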
